A study of Mus musculus with 16 samples.

Results

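The 4 control cultures of a study of mouse cortical neural progenitor cells were described here as a baseline, and they were chosen by their label, wild type given DMSO, from the 16 libraries of the series. Neural progenitor cells are dividing cells, grown from the embryonic brain, that can make neurons and glia. These came from E18.5 cortex, shortly before birth. The control cells had received a lentivirus without a guide against Chd1: the design text of the series names a control plasmid, pLenti-CRISPR-v2, and the growth protocol a lentivirus carrying Cas9 alone, so Cas9 itself was present by that protocol. Puromycin selection lasted 48 h, the cells were then expanded, and DMSO, the solvent of the drugs used elsewhere in the study, was given for 24 h. The medium was neurobasal with B27 supplement, 20 ng/mL FGF-2, 20 ng/mL EGF and 2 µg/mL heparin, replaced or sub-cultured every 2 days. For the 4 biological replicates 2 litters were used, but neither litter nor sex is labelled by replicate. The other 12 libraries were of cells with a guide against Chd1 and were not used here. No group was compared with another, so the values below are levels, with no test of a difference.

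Neural progenitors of the late embryonic cortex descend from radial glia, which line the ventricle and carry the transcription factors Sox2 and Pax6, the intermediate filaments nestin and vimentin, and the fatty acid binding protein Fabp7. In vivo they pass through an intermediate progenitor marked by Eomes to excitatory neurons, and near birth they turn to making astrocytes and oligodendrocytes. FGF-2 and EGF keep such cells dividing in culture, where Notch signalling and its Hes targets hold back neuronal factors.

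Polyadenylated RNA was sequenced and is given as TPM, transcripts per 1000000 transcripts, a share of the library scaled by transcript length, so that levels of different genes can be compared. TPM values of all transcripts matched to a gene were summed. Where the protein-coding transcripts of an expressed gene held much less than that sum, their level is given as well. Levels in replicates 1 to 4 are given in that order, and a level followed by ± is the mean with its standard deviation (SD, n = 4). A gene was counted as expressed at a mean of at least 1 TPM. By that rule 12295 of 21882 protein-coding genes (56.2%) were expressed, 8306 of them (38.0% of all) at 10 TPM or more and 1476 (6.75% of all) at 100 TPM or more. The median protein-coding gene lay at 2.68 TPM. At the other end, 3138 protein-coding genes were listed at 0 in all 4 libraries. The share of 56.2% is the level against which the counts of expressed genes in each list below are to be read. In bulk RNA, fewer cells of a type and less RNA per cell cannot be told apart.

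Replicate 1 stood apart from the others. It held 20.2 M estimated counts (M for 1000000) against 32.5, 34.8 and 33.4 M in replicates 2 to 4, and 11526 protein-coding genes reached 1 TPM in every library. Although it was the shallowest, it had the most protein-coding genes at 1 TPM or more, with 12719 against 12041, 11869 and 12335. Mitochondrial messenger RNAs made 2.34% of its TPM and 7.06% to 7.92% in the others. Its own differences are given gene by gene in the last paragraphs. Many low means rested on 1 library: of 115 genes named here with a mean above 0 and under 1 TPM, the mean of 74 was over 1.5 times lower without 1 library, which was replicate 1 for 62 of them.

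All 8 marker genes by which these cells would be recognised passed 1 TPM, but they spanned 3 tiers. Fabp7 was the highest, at 3482, 4146, 4893 and 4161 TPM in replicates 1 to 4 (mean 4170.5 ± 576). Vim, the gene of vimentin, followed with 2294, 2054, 2147 and 1689.8 TPM. Nes, nestin, was at 643, 639, 597 and 570.0 TPM, and Olig2, a bHLH transcription factor of the oligodendrocyte and ventral progenitor lineages, at 503, 511, 474 and 455 TPM. These 4 genes kept that order in 4 of 4 libraries, with coefficients of variation of 13.8%, 12.6%, 5.69% and 5.40%. Part of Vim lay in non-coding transcripts that were highest in replicate 1, the largest at 559 and 231 TPM there, and 1771 TPM of its mean was in protein-coding ones. The main protein-coding transcript of Vim was at 1493, 1989, 2033 and 1534 TPM, so it was lowest in replicate 1, where the sum was highest. Sox2, which keeps neural stem cells undifferentiated, was at 129, 156, 150.4 and 167 TPM, lowest in replicate 1. The middle tier further held Mki67, the gene of the Ki-67 protein of cycling cells, at 48.4, 48.3, 40.9 and 56.0 TPM and Pax6, the radial glial factor of the dorsal forebrain, at 24.1, 15.4, 16.4 and 21.3 TPM, of which a mean of 13.0 TPM was in protein-coding transcripts. Olig2 thus exceeded Pax6 in 4 of 4 libraries.

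Gfap, the intermediate filament of astrocytes, formed the lowest tier at 2.05, 0.579, 2.41 and 3.61 TPM (mean 2.16 ± 1.25). Of that level, 57.9% belonged to a 356-base transcript annotated as non-coding, and the protein-coding transcripts came to 0.910 TPM, below the threshold. Replicate 2 was the lowest and replicate 4 the highest. The other 7 markers were above 10 TPM in every library, as the label of progenitors would have it, and the astrocyte marker was close to the threshold.

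**Figure D1:**
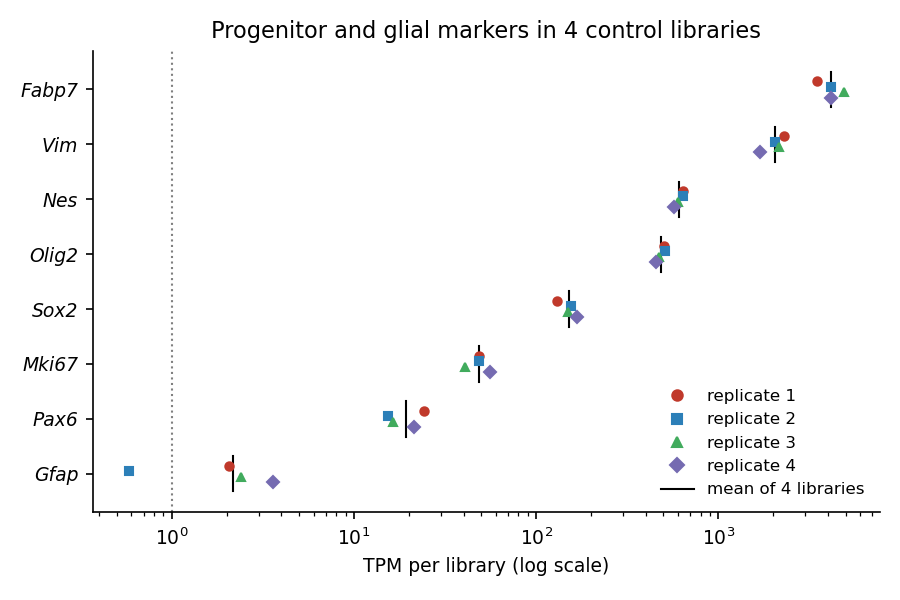
TPM of the 8 marker genes in each library on a log axis, with the mean of the 4 libraries as a black bar and a dotted line at 1 TPM. Fabp7 sits highest at a mean of 4170.5 TPM, and Gfap sits near the line, with replicate 2 below it at 0.579 TPM.

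The sequences before the start of 3 of these markers, and of C1qb, which encodes a complement subunit made by microglia, are shown because the genes cover the range from the highest marker to a gene listed at 0. Each run is the 250 bases upstream of the RefSeq start (build GRCm38.p6), 5′ to 3′ on the strand of the gene, with every CG pair in capitals. Fabp7 lies at chr10:57784673-57784922 (plus strand), Olig2 at chr16:91225300-91225549 (plus strand), Gfap at chr11:102897201-102897450 (minus strand) and C1qb at chr4:136886201-136886450 (minus strand).
Fabp7: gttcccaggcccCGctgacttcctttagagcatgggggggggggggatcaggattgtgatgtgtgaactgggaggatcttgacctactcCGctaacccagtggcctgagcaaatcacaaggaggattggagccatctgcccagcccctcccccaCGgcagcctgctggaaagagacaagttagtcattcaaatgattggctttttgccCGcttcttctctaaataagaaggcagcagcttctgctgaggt
Olig2: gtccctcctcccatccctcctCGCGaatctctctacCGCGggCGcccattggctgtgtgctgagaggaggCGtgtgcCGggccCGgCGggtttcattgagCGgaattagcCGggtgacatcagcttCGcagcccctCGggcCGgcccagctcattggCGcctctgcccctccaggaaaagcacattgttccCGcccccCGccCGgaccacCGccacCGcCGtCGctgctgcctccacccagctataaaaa
Gfap: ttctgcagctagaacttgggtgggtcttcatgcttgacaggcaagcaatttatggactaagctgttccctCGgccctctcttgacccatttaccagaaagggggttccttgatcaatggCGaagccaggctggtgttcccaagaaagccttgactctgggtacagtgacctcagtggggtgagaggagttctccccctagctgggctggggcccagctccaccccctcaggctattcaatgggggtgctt
C1qb: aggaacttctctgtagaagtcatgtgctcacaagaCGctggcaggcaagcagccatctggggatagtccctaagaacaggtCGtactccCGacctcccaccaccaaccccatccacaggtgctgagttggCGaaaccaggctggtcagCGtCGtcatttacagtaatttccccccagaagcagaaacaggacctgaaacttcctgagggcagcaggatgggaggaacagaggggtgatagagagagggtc
Fabp7, at 4170.5 TPM, holds 4 CG pairs, and 62.2% of the 32851 RefSeq promoter windows of this length hold as many or more. Olig2, at 486 TPM, holds 22 pairs, a number reached by 14.8% of windows. Gfap holds 2 pairs, reached by 81.2%, and C1qb 6, reached by 50.4%. Among these 4 chosen genes CG pairs and RNA level did not follow the same order: Fabp7 had fewer pairs than C1qb, while Olig2 had more than Gfap. Only 75.4% of protein-coding nuclear genes had a window in the table, under the 80% set for a comparison over genes, so CG content was not compared with expression genome-wide.

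Of the wider radial glia and neural stem cell list, 37 of 38 genes were expressed, against 56.2% of all protein-coding genes, and the list median was 60.1 TPM. Beside Fabp7, Vim and Nes, the highest were Dbi, an acyl-CoA binding protein, at 2224 ± 245 TPM and Ptn, the secreted growth factor pleiotrophin, at 1918 ± 130.2 TPM. Fabp5, another fatty acid binding protein, was at 499 ± 60.2 TPM. Tnc, the matrix protein tenascin-C of the stem cell niche, was at 445 ± 65.9 TPM and Slc1a3, the glial glutamate transporter GLAST, at 340.4 ± 42.0 TPM. These 5 were above 100 TPM in each library. The low end of the list was formed by Nr2e1, an orphan nuclear receptor of neural stem cells, at 6.03 ± 2.32 TPM, Gli3 at 4.15 ± 0.601 TPM, Prom1, which encodes the surface antigen prominin-1, at 1.70 ± 0.532 TPM, Id4 at 1.31 ± 0.266 TPM and Hes5 at 1.03 ± 0.425 TPM. Thbs4, a thrombospondin, was the member that missed the threshold, at 0.433 ± 0.131 TPM.

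The Hes and Id genes, which encode inhibitors of proneural bHLH factors, were split. Hes1 stood at 81.7, 54.9, 57.0 and 85.8 TPM in replicates 1 to 4 and Hes5, its paralog and a usual readout of Notch, at 0.974, 1.11, 0.505 and 1.54 TPM. Hes1 was the higher of the pair in 4 of 4 libraries. Without replicate 4 the mean of Hes5 was below 1 TPM, so its call as expressed rested on that library. The Id genes spanned as wide a range: Id3 was at 233 ± 37.2 TPM and Id1 at 96.9 ± 17.8 TPM, while Id4 reached 1.35, 1.13, 1.10 and 1.68 TPM in the 4 libraries. Of the 13 Hes, Hey and Id genes, 8 were expressed, and Heyl, Hey2, Hes2, Hes3 and Hes7 were under 1 TPM.

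All 20 genes of the cell division list were expressed, with a median of 121 TPM. The highest were the G1 cyclins Ccnd1, at 1050.0, 1319, 1041 and 1223 TPM in replicates 1 to 4, and Ccnd2, at 442 ± 92.3 TPM. Pcna, the replication clamp, was at 378 ± 24.9 TPM and Cdk1, the mitotic kinase, at 323 ± 6.36 TPM, of which 166 TPM was in protein-coding transcripts. Top2a, topoisomerase II alpha, was at 231 ± 27.1 TPM, of which 123 TPM was in protein-coding transcripts. Ube2c, the ubiquitin-conjugating enzyme of mitotic exit, was at 254 ± 15.3 TPM. The lowest were Cenpf, a kinetochore protein, at 18.0 ± 3.22 TPM and Bub1, a spindle checkpoint kinase, at 8.30 ± 1.92 TPM.

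Inhibitors of the cell cycle were high in the same cultures. Cdkn1a, which encodes p21 and is a target of p53, was at 772, 645, 593 and 752 TPM in replicates 1 to 4. Cdkn2a, the locus of p16INK4a and p19ARF, was at 269, 305, 307 and 238 TPM, and its 2 transcripts held 50.1% and 49.9% of the level. Both genes were above 200 TPM in every library. Cdkn2c was at 80.4 ± 6.82 TPM, Cdkn1b at 52.3 ± 3.10 TPM and Cdkn2b at 28.9 ± 5.85 TPM. All 15 genes of the p53 target list were expressed, with a median of 91.3 TPM: Bax, a promoter of apoptosis, was at 509.6 ± 32.5 TPM, Ccng1 at 226 ± 60.2 TPM, Phlda3 at 198 ± 13.9 TPM, Plk2 at 182 ± 13.0 TPM and Aen, an apoptosis nuclease, at 145 ± 18.6 TPM. Pmaip1, which encodes Noxa, was the lowest at 26.2 ± 5.48 TPM. Trp53 itself was at 91.3 ± 7.58 TPM and Mdm2, which targets p53 for destruction, at 68.1 ± 12.4 TPM, of which 42.4 TPM was in protein-coding transcripts. The part of lentivirus, Cas9, selection or culture in these levels was not tested. Tert, the catalytic subunit of telomerase, was at 0.682 ± 0.253 TPM.

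Of the intermediate progenitor list 4 of 11 genes were expressed, a smaller share than the 56.2% of all protein-coding genes. Eomes, its defining transcription factor, was at 1.00, 0.660, 0.543 and 0.355 TPM in replicates 1 to 4, and Neurog2, the proneural factor of cortical neurogenesis, at 0.293, 0.0221, 0 and 0.0224 TPM. Neurog1 was at 0.635, 0, 0 and 0 TPM. Neurod1 had a mean of 0.446 TPM and Neurod4 of 0.0329 TPM. Tbr1, which follows Eomes in young neurons, was at 1.52, 0.135, 0.0340 and 0.0814 TPM. Replicate 1 had the highest Eomes, Neurog1, Neurog2 and Tbr1 of the 4 libraries. The expressed members were Gadd45g, a growth arrest gene, at 27.2 ± 4.56 TPM, Insm1, a zinc finger factor of basal progenitors, at 20.0 ± 2.88 TPM, Btg2, an antiproliferative gene, at 18.8 ± 2.97 TPM and Elavl4 at 5.19 ± 1.49 TPM.

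Of the excitatory cortical neuron list 15 of 26 genes were expressed, close to the share of all protein-coding genes, with a median of 2.25 TPM. Map2, a microtubule-associated protein of dendrites, stood above all others at 336, 341, 215 and 440.3 TPM. Gap43, a growth cone protein, was at 56.0 ± 10.3 TPM, Tubb3, neuronal beta-tubulin, at 39.0 ± 4.60 TPM and Tle4, a corepressor found in deep layer neurons, at 30.5 ± 3.59 TPM. Other members of the list lay lower. Dcx, doublecortin of migrating neurons, was at 0.358, 0.0767, 0.0373 and 0.470 TPM, Neurod6 at 0.0841 TPM, Neurod2 at 0.161 TPM and Fezf2 at 0.186 TPM. Stmn2, a microtubule regulator of young neurons, was at 1.16, 0.0241, 0 and 0.0280 TPM. Replicate 1 was highest for Neurod6, Neurod2, Fezf2 and Stmn2, and without it their means were 0.0210, 0.00496, 0.0305 and 0.0174 TPM. Slc17a7 and Slc17a6, the vesicular glutamate transporters, were at 0.154 and 0.00407 TPM, and at 0.0446 and 0 TPM without replicate 1. Bcl11b, a factor of deep layers, was at 1.26 ± 0.397 TPM. In the GABA interneuron list 7 of 20 genes were expressed, again a smaller share than among all genes. Means of 10 TPM or more were found for 3 of the 7, among them Calb2, calretinin, at 24.0 ± 9.89 TPM and Maf at 18.99 ± 4.04 TPM. The other expressed members are not named here. Gad2, which makes GABA, was at 0.0521 TPM, and at 0.0112 TPM without replicate 4. Slc32a1, which loads GABA into vesicles, was at 0.0751 TPM, Sst at 0.115 TPM and Vip at 0.00861 TPM, and all 3 were listed at 0 outside replicate 1.

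The oligodendrocyte precursor list had 14 of 17 genes expressed, from the level of Olig1 down to values listed at 0. Olig1 was at 811, 828, 848 and 815 TPM in replicates 1 to 4, beside Olig2 in the upper tier. Ptprz1, a receptor phosphatase, was at 234 ± 71.5 TPM and Cspg5 at 97.6 ± 15.2 TPM. Pdgfra, the PDGF receptor that defines oligodendrocyte precursors in vivo, was at 1.86, 1.13, 0.645 and 0.724 TPM, so replicates 3 and 4 were under the threshold, and its mean without replicate 1 was 0.832 TPM. Sox10, the lineage factor downstream of Olig2, was at 0.682, 0, 0 and 0 TPM. Gpr17, a receptor of committed precursors, was at 0.0764, 0, 0 and 0 TPM. The Olig genes were thus high in every library, while Sox10 and Gpr17 were read in replicate 1 alone. Between those extremes lay Nkx2-2, a homeodomain partner of Olig2, at 20.2 ± 10.8 TPM, Bcas1 at 20.1 ± 3.30 TPM and Cspg4, the NG2 proteoglycan, at 14.8 ± 4.66 TPM, of which 8.04 TPM was in protein-coding transcripts. In the mature oligodendrocyte list 5 of 14 genes were expressed, 3 of them without replicate 4, and 1 was at 1 TPM or more in every library. Cnp, an enzyme of myelin, was at 40.2 ± 1.77 TPM, and the myelin gene Mog at 0.0756 TPM. Mbp, myelin basic protein, was at 1.72, 0.138, 0.0324 and 0.126 TPM, highest in replicate 1, and Mag at 0.248, 0.0201, 0.0348 and 1.19 TPM, highest in replicate 4. Their means of 0.504 and 0.372 TPM were 0.0986 and 0.101 TPM without those libraries.

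Astrocyte-list genes were expressed in 21 of 25 cases, with a median of 38.2 TPM, and many are shared with radial glia. Cst3, a secreted cysteine protease inhibitor, was at 702 ± 97.5 TPM, Glul, glutamine synthetase, at 339.7 ± 29.2 TPM, Acsbg1 at 231 ± 17.8 TPM and Sparcl1 at 204 ± 11.6 TPM. Apoe was at 159 ± 21.2 TPM, of which 87.5 TPM was in protein-coding transcripts. Aldh1l1, a folate enzyme used as an astrocyte marker, was at 88.7, 23.9, 33.7 and 102 TPM, so replicates 1 and 4 lay over 2.5 times above replicates 2 and 3. Aqp4, the water channel of astrocyte endfeet, was at 0.236, 0, 0.194 and 0 TPM and Gjb6, connexin 30, at 0.0388, 0.0264, 0 and 0 TPM. Slc1a2, the glutamate transporter GLT-1, was at 6.91 ± 3.04 TPM. Agt and S100b were at 6.98 ± 2.70 and 8.56 ± 1.27 TPM.

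Markers of other cells that a cortical culture could hold were largely missing. Of the microglia and macrophage list 3 of 18 genes were expressed, and C1qa, C1qb, Tmem119 and Tyrobp were listed at 0 in every library. A count of 0 allows up to 3 counts, which in replicate 1, the shallowest library, correspond to 0.242 TPM for C1qb and 0.663 TPM for Tyrobp. The highest of the 3 expressed members, not named here, had a mean of 10 TPM or more. The others were Cd68, a lysosomal protein, at 4.77 ± 1.85 TPM, of which 2.06 TPM was in protein-coding transcripts, and P2ry12, at 1.19, 1.83, 2.59 and 1.95 TPM. Of the endothelial list 5 of 13 genes passed, none above the 1.97 TPM of Slco1a4, an organic anion transporter, with Cldn5 at 0.0565 TPM, read in replicate 1 alone, and Cdh5 at 0.0330 TPM, or 0.0211 TPM without replicate 2. In the pericyte, meninges and fibroblast list 7 of 18 genes were expressed, led by Ogn at 0.884, 12.4, 6.59 and 6.15 TPM and Acta2 at 1.77, 9.96, 8.32 and 2.82 TPM, while Pdgfrb was at 0.0153 TPM and Col3a1 at 0.292 TPM (0.00823 and 0.186 TPM without replicate 1). None of the 8 blood genes was expressed, and Hba-a1, Hba-a2, Hbb-bs, Hbb-bt and Hbb-y were listed at 0 throughout.

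Of the ependymal list 7 of 12 genes were expressed, close to the 56.2% among all protein-coding genes. Foxj1, the transcription factor of motile cilia, was at 22.8, 24.2, 20.1 and 18.0 TPM in replicates 1 to 4, whereas Mcidas, which acts above it in multiciliated cells, was listed at 0 in all 4. Dynlrb2, a dynein light chain, was at 12.2 ± 1.96 TPM. All 7 expressed members were at 1 TPM or more in every library, those not named here at means under 10 TPM. Among the lowest members were the axonemal genes Dnah12 and Tekt4, at 0.0342 TPM (0.0137 TPM without replicate 1) and 0.0499 TPM (0.0102 TPM without replicate 4). In the choroid plexus list Otx2 alone passed, at 4.92, 8.80, 0.301 and 7.16 TPM, and Ttr, the main secreted product of that tissue, was at 0.135 TPM. The call of Folr1, at 0.986 TPM, turned when replicate 1, 2 or 4 was left out, which gave 2 of 8 members. Of 11 neural crest and Schwann cell genes 5 were expressed, with Pmp22 at 103 ± 6.61 TPM and Ets1 at 9.58 ± 3.04 TPM. Among 10 genes of pluripotent cells, Klf4 was at 3.69 ± 1.75 TPM and Pou5f1 at 0.0548 TPM (0.0136 TPM without replicate 1), and Dppa3, Dppa5a and Utf1 were listed at 0.

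**Figure D2:**
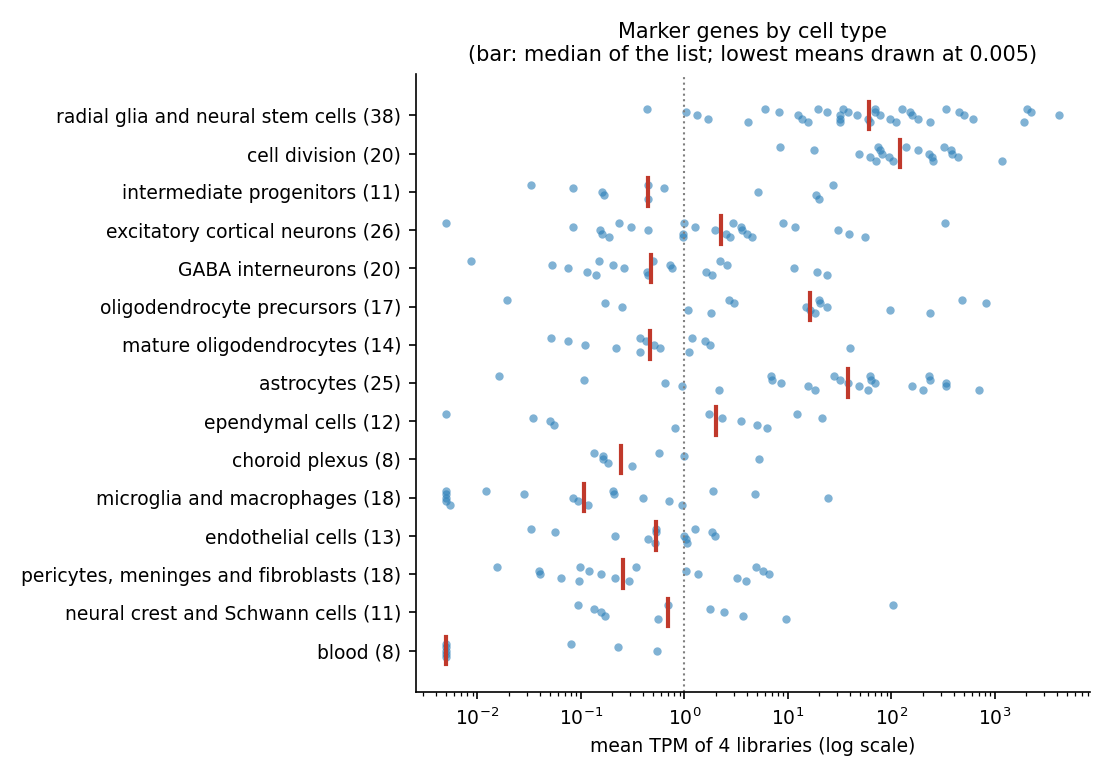
Mean TPM (log axis) of every member of 15 marker lists, 1 point per gene and the number of genes in brackets, with a red bar at the list median and a dotted line at 1 TPM; means under 0.005 TPM are drawn at 0.005. Median bars of radial glia (60.1 TPM), division (121 TPM) and astrocytes (38.2 TPM) lie to the right of the line, and that of microglia (0.106 TPM) to its left.

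Transcription factors that pattern the forebrain were those of cortex in part. Lhx2, a LIM homeodomain selector of cortex, was at 105, 120.1, 116 and 100.4 TPM in replicates 1 to 4. Nr2f1 (COUP-TFI) was at 37.9 ± 7.59 TPM and Emx2 at 13.7 ± 1.88 TPM. Emx1, the homeobox gene restricted to the dorsal telencephalon, was at 0.182, 0, 0.0297 and 0 TPM, and replicates 2 and 4 listed it at 0. Emx2 exceeded Emx1 in 4 of 4 libraries. Of the 21 dorsal genes 15 were expressed. Dmrta2 was at 10.6 ± 2.68 TPM, whereas Dmrta1, Fezf2 and Fezf1 were at 0.275, 0.186 and 0.0817 TPM. Without replicate 1, Fezf2 was at 0.0305 TPM and Fezf1 was listed at 0. Dmrt3 was at 1.79, 0.0203, 0.0352 and 0 TPM, a level carried by replicate 1.

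On the ventral side 14 of 24 genes were expressed, close to the share among all protein-coding genes. Besides Olig1 and Olig2, Meis2 was at 25.2 ± 6.45 TPM and Pbx3 at 11.8 ± 1.91 TPM. Gsx1, a homeobox gene of the ganglionic eminences, was at 13.9, 8.00, 11.3 and 13.9 TPM. Its paralog Gsx2 was at 0.144, 0.0315, 0 and 0.0318 TPM, so Gsx1 was the higher in 4 of 4 libraries. Of genes downstream in interneuron lineages, Dlx1 was at 1.05, 0.525, 0.0998 and 1.24 TPM and Dlx2 at 0.634, 0.117, 0.102 and 0.198 TPM. Lhx6 was at 1.81, 0.0146, 0.154 and 0 TPM and Nkx2-1, the medial eminence factor, at 0.369, 0.0221, 0 and 0.212 TPM. None of the 6 Dlx genes had a mean of 1 TPM.

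Among 24 midbrain, hindbrain and spinal factors, 6 were expressed, a smaller share than among all genes. Gbx2, known for setting the border of midbrain and hindbrain, was the highest at 24.7, 45.8, 51.4 and 24.4 TPM, of which a mean of 23.8 TPM was in protein-coding transcripts. Irx5 was at 5.03 ± 0.774 TPM, Irx3 at 4.01 ± 0.979 TPM, En2 at 1.92 ± 0.660 TPM and En1 at 1.55 ± 0.820 TPM. Pax2, Pax3, Pax5 and Pax7 were at 0.225, 0.163, 0.264 and 0.363 TPM, and Dbx1 was listed at 0. Replicate 1 was the highest for Pax2, Pax3 and Pax5, whose means without it were 0.0518, 0.0203 and 0.00341 TPM. The 39 Hox genes gave a summed 30.7, 0.931, 1.03 and 1.68 TPM in replicates 1 to 4. Nearly all of that sum was in replicate 1, and the one Hox gene past the threshold, Hoxc6 at 4.45, 0, 0 and 0 TPM, was listed at 0 in the other 3 libraries.

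**Figure D3:**
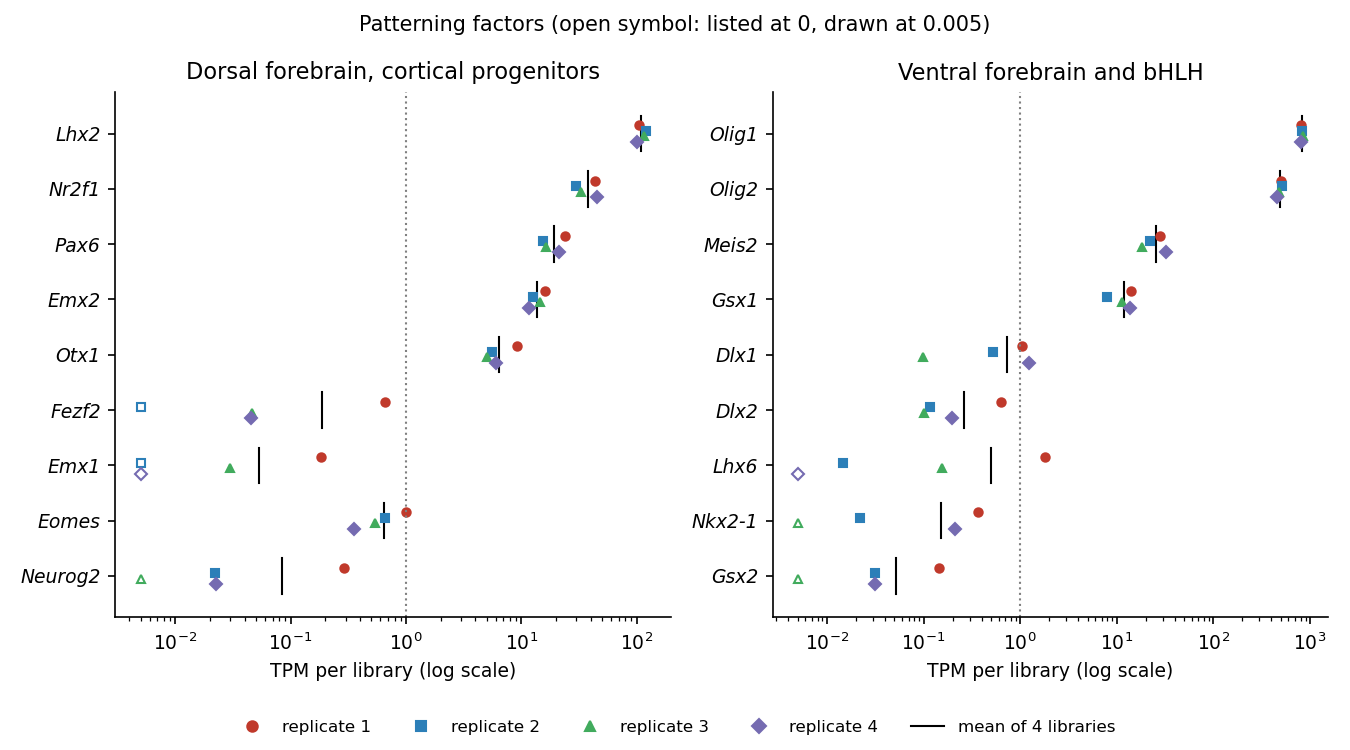
TPM of 18 forebrain patterning and lineage factors in each library (log axis, mean as a black bar, dotted line at 1 TPM, open symbols for values listed at 0). Lhx2, Nr2f1, Pax6, Emx2, Otx1, Olig1, Olig2, Meis2 and Gsx1 lie above 1 TPM in every library, and replicate 1 has the highest value of Emx1, Fezf2, Lhx6 and Gsx2.

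Of 14 Sox genes, mainly of the SoxB, SoxC, SoxD and SoxE groups, 12 were expressed, and Sox2 was the highest. Sox4 was at 70.0 ± 10.4 TPM, Sox3 at 61.4 ± 10.5 TPM, Sox8 at 55.1 ± 10.6 TPM and Sox9, which opens the way to gliogenesis, at 32.1 ± 2.34 TPM. The 4 NFI genes, factors of the switch to glia, were all expressed, with Nfix at 68.8 ± 13.3 TPM, Nfib at 59.5 ± 12.1 TPM, Nfia at 18.2 ± 2.68 TPM and Nfic at 18.1 ± 4.52 TPM. The E proteins, general partners of bHLH factors, were abundant: Tcf4 was at 225 ± 69.3 TPM, Tcf12 at 108 ± 24.4 TPM and Tcf3 at 95.4 ± 13.5 TPM. Their neuronal partners Nhlh1, Nhlh2, Atoh1 and Neurog3 were at 0.00723, 0.0461, 0.0258 and 0.0654 TPM. Outside replicate 1, Nhlh1, Atoh1 and Neurog3 were listed at 0 and Nhlh2 had a mean of 0.00753 TPM. In the POU class Pou3f3 was at 51.1 ± 5.32 TPM and Pou3f1 at 30.5 ± 3.25 TPM, both neural factors, while Pou4f1 of sensory neurons was at 0.208 TPM. Tead2, a DNA-binding partner of YAP, was at 139 ± 14.03 TPM and Yap1 at 54.1 ± 6.04 TPM. Tead4, another member, was at 0.901 TPM. Of the immediate early genes, Jund was at 98.5 ± 6.57 TPM, Egr1 at 80.7 ± 34.5 TPM and Myc at 75.9 ± 6.84 TPM, and Fos at 4.20 ± 2.26 TPM. Npas4, which neuronal activity induces, was at 0.265 TPM. Of 17 KLF genes 13 were expressed, led by Klf10 at 156 ± 75.4 TPM, and all 5 ZIC genes were, led by Zic2 at 18.6 ± 3.71 TPM. The Forkhead family had 17 of 44 expressed, with Foxk2 at 38.8 ± 4.53 TPM and Foxm1, a factor of dividing cells, at 37.1 ± 10.0 TPM, while Foxa1 of endoderm was at 0.191 TPM, or 0.0752 TPM without replicate 1.

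The receptors of both growth factors in the medium were present. Fgfr1 was at 162, 151, 122 and 136 TPM in replicates 1 to 4, Fgfr2 at 23.2 ± 3.38 TPM and Fgfr3 at 15.6 ± 2.76 TPM. Fgfr4 was at 0.124, 0.732, 0.321 and 0.0283 TPM, under the threshold in each library. Egfr, the receptor of EGF, was at 39.5, 32.3, 26.2 and 38.9 TPM. Its partner Erbb2 was at 7.25 ± 1.07 TPM. The neuregulin receptors Erbb4 and Erbb3 were at 1.60, 0.217, 0.806 and 0.391 TPM and 0.0654, 0.0441, 0 and 0.00746 TPM. RNA of a main receptor of each supplied ligand was thus read in every library, while Fgfr4 and Erbb3 RNA was scarce. Heparan sulfate proteoglycans, which present FGF to its receptor, were also abundant, with Sdc4 at 117 ± 8.83 TPM, Sdc3 at 88.7 ± 12.7 TPM and Gpc4 at 82.9 ± 24.0 TPM. Klb, the coreceptor of endocrine FGFs, was at 0.0955 TPM, or 0.0587 TPM without replicate 4.

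All 14 genes of the FGF and EGF feedback list were expressed, with a median of 90.6 TPM. These are genes that the ERK pathway is known to induce and that in part restrain it. Dusp6, an ERK phosphatase, was at 527, 561, 450.2 and 622 TPM in replicates 1 to 4 and Etv5, an ETS factor, at 312, 307, 251 and 363 TPM. The lowest library of both was replicate 3 and the highest replicate 4. Expressed protein-coding genes as a whole had the same order, with a median log2 ratio to the median of the other libraries of -0.18 in replicate 3 and 0.15 in replicate 4. Spry2, Spry1 and Spry4, the Sprouty inhibitors, were at 161 ± 6.53, 132 ± 16.0 and 116 ± 15.5 TPM. Etv4 was at 87.5 ± 19.3 TPM, of which 45.6 TPM was in protein-coding transcripts. Errfi1, an inhibitor of EGFR, was the lowest at 6.29 ± 0.745 TPM. Of 24 ligands of the family 14 were expressed, close to the share among all protein-coding genes, and only Fgf1 at 67.6 ± 20.6 TPM, Hbegf at 43.0 ± 10.2 TPM and Fgf12 at 10.2 ± 1.43 TPM were above 10 TPM. The RNA of the 2 ligands supplied in the medium was low, with Fgf2 at 1.16 ± 0.885 TPM, of which 0.676 TPM was in protein-coding transcripts and which was 0.719 TPM without replicate 1, and Egf at 1.28 ± 0.462 TPM, of which 0.376 TPM was.

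Steroid receptors matter for this study because other cultures of it received dihydrotestosterone, an androgen. Nr3c1, the glucocorticoid receptor, was the highest of those reported here, at 21.3, 17.2, 11.1 and 23.5 TPM in replicates 1 to 4. Nr3c2, the mineralocorticoid receptor, was at 0.769, 0.359, 0.304 and 0.534 TPM. The oestrogen receptors Esr1 and Esr2 were at 0.731, 0.0556, 0 and 0.0212 TPM and 0.162, 0.0453, 0.228 and 0.0311 TPM, and Pgr, the progesterone receptor, at 0.0492 TPM. Replicate 1 carried most of the Esr1 level.

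Genes of androgen handling were read alongside. Of the steroid alpha-reductase family, which includes the enzymes that make dihydrotestosterone from testosterone, Srd5a3 was at 25.5 ± 0.867 TPM and Srd5a1 at 9.01 ± 1.13 TPM, and Srd5a2 was listed at 0 in all 4 libraries. Cyp17a1, Cyp11a1, Hsd17b3 and Hsd3b1, which make androgens, were at 0.0662, 0.0482, 0.0328 and 0 TPM. Without its highest library, replicate 2 for Cyp17a1, replicate 1 for Cyp11a1 and replicate 4 for Hsd17b3, the mean was 0.0276, 0.0311 and 0 TPM. Cyp19a1, aromatase, was at 0.178 TPM. The receptor chaperones were abundant, with Hsp90ab1 at 1773 ± 59.2 TPM and Fkbp4 at 199.7 ± 17.0 TPM. Fkbp5, a gene that steroid receptors induce, was at 32.3, 29.3, 25.4 and 27.7 TPM. The corepressor Ncor1 was at 84.3 ± 17.5 TPM, above the coactivators Ncoa1, Ncoa2 and Ncoa3 at 9.87, 8.26 and 8.72 TPM, the last with 5.51 TPM in protein-coding transcripts. Zbtb16 was at 1.53 ± 0.744 TPM. Of 42 other nuclear receptors 27 were expressed. Thra, a thyroid hormone receptor, was the highest at 78.4 ± 13.2 TPM, followed by Nr1h2 (LXR beta) at 53.9 ± 6.40 TPM, Nr2f6 at 51.6 ± 5.18 TPM, Nr2f1 (above) and Esrra at 36.6 ± 11.4 TPM. Vdr, the vitamin D receptor, was at 0.0178 TPM and Nr0b1 was listed at 0.

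**Figure D4:**
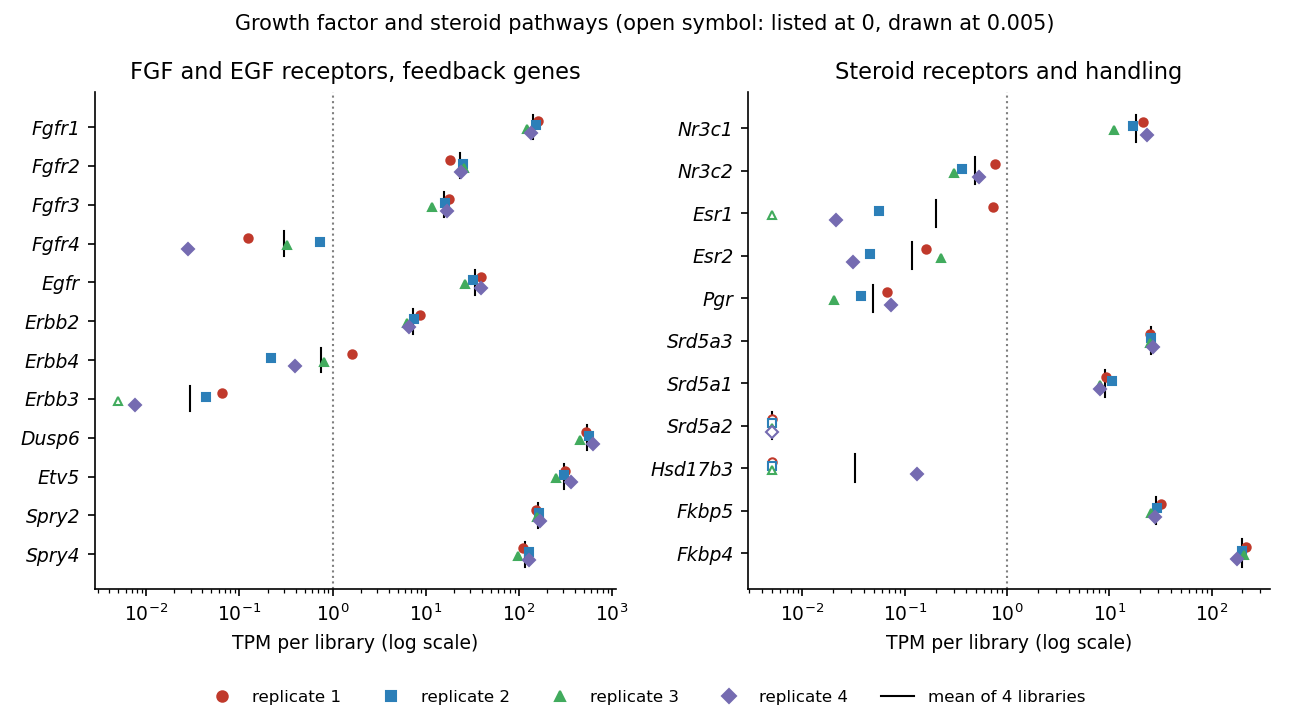
TPM per library (log axis, mean as a black bar, dotted line at 1 TPM, open symbols for values listed at 0) of FGF and EGF receptors with 4 feedback genes, and of steroid receptors with 6 genes of steroid handling. Fgfr1 and Egfr lie above 1 TPM in each library at means of 143 and 34.2 TPM, and Nr3c2, Esr1, Esr2 and Pgr lie below it in each.

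The 4 Notch receptors were expressed, led by Notch1 at 48.5, 26.2, 18.6 and 33.8 TPM in replicates 1 to 4 and Notch2 at 14.7 ± 2.38 TPM. Lfng, a glycosyltransferase that tunes Notch to its ligands, was at 130.1 ± 6.45 TPM, the highest of 16 ligands and modulators. Dll1 was at 28.3 ± 7.22 TPM, of which 16.2 TPM was in protein-coding transcripts, Jag1 at 20.0 ± 4.40 TPM and Dll4 at 0.185 TPM, or 0.108 TPM without replicate 1. In the Wnt pathway 16 of 20 receptor genes were expressed, with Ryk at 94.6 ± 11.2 TPM and Fzd1 at 91.7 ± 1.62 TPM. Among 30 Wnt ligands and targets 11 passed, and Wnt5a was the highest at 60.6, 59.3, 44.4 and 73.9 TPM. Wnt7b was at 19.9 ± 2.67 TPM, Wnt7a at 15.6 ± 1.99 TPM and the feedback target Axin2 at 24.3 ± 4.29 TPM. Wnt1, Wnt3a, Wnt8b and Lef1 were at 0.0678, 0.0254, 0.143 and 0.713 TPM. Wnt1 and Wnt3a were listed at 0 outside replicate 1, Lef1 was at 0.462 TPM without it, and Wnt8b at 0.0902 TPM without replicate 3.

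Of 14 Hedgehog genes 10 were expressed. Smo, the transducer, was at 62.9 ± 8.92 TPM, Gas1, a coreceptor, at 101 ± 7.25 TPM and Ptch1, receptor and target, at 13.9 ± 2.75 TPM. Gli1, the usual target gene, was at 0.779, 0.306, 0.0389 and 0.0913 TPM in replicates 1 to 4, below Smo and Ptch1 in each library. Shh, the ligand, was at 2.11, 1.10, 1.80 and 0.792 TPM. Of 14 BMP and TGF-beta receptors 10 were expressed, with Bmpr1a at 35.1 ± 9.36 TPM and Tgfbr2 at 22.8 ± 6.24 TPM. Bmp1, a procollagen protease in spite of its name, was the highest gene of the ligand list at 66.5 ± 7.70 TPM, and Bmp4 and Bmp2 were at 0.426 TPM (0.189 TPM without replicate 1) and 0.608 TPM. Receptors of the gp130 cytokines, which direct progenitors to astrocytes, were present: Il6st, gp130 itself, was at 29.0 ± 5.60 TPM and Lifr at 10.1 ± 2.71 TPM, while Il6ra was at 0.912 TPM (1.06 TPM without replicate 3).

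Among other receptor tyrosine kinases 17 of 32 were expressed, again close to that share. Ddr1, a collagen receptor, was at 113 ± 13.3 TPM, Ntrk2, the receptor of BDNF, at 105 ± 2.10 TPM and Ptk7 at 47.7 ± 6.21 TPM. Ret, Met and Alk were at 0.0913, 0.261 and 0.262 TPM. Of 22 Eph receptors and ephrins 15 passed, none above 26.8 TPM, the level of Efnb1. Axon guidance receptors were expressed in 18 of 20 cases, led by Plxnb2 at 184 ± 22.7 TPM, while Dcc, the netrin receptor, was at 0.390 TPM.

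Transmitter receptors were expressed in part. Gria2, the AMPA receptor subunit that blocks calcium flow, was at 104, 76.9, 55.9 and 126 TPM in replicates 1 to 4, of which a mean of 57.9 TPM was in protein-coding transcripts. Gria4 was at 41.2 ± 7.68 TPM, Gria3 at 35.1 ± 7.85 TPM and Gria1 at 2.48 ± 1.58 TPM. Of the metabotropic receptors Grm5 was at 58.3, 53.3, 39.2 and 79.8 TPM, of which 38.3 TPM was in protein-coding transcripts. The NMDA receptor core was near the threshold, with Grin1 at 2.66 ± 1.08 TPM and Grin2b at 0.517 TPM, or 0.262 TPM without replicate 4. Of 16 GABA receptor genes 6 were expressed, with Gabrg1 at 19.1 ± 7.13 TPM. Of 39 receptors of monoamines and acetylcholine 11 passed. Chrm3, a muscarinic receptor, was at 24.6 ± 3.25 TPM, Adrb1, an adrenergic receptor, at 18.9 ± 1.20 TPM and Hrh1, a histamine receptor, at 11.0 ± 2.17 TPM. Drd2, the highest of the dopamine receptors Drd1 to Drd5, was at 0.127 TPM.

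G protein-coupled receptors of purines, lipids and peptides were expressed in 28 of 53 cases, close to the share among all protein-coding genes. Adgrg1, an adhesion receptor needed for a normal cortical surface, was at 302, 231, 189 and 271 TPM in replicates 1 to 4. Ednrb, the endothelin B receptor, was at 104 ± 15.5 TPM, F2r, the thrombin receptor, at 89.6 ± 9.22 TPM and Gprc5b at 64.7 ± 9.24 TPM. Adcyap1r1, the receptor of PACAP, was at 39.3 ± 15.0 TPM and Adora1, an adenosine receptor, at 38.8 ± 4.89 TPM. The opioid receptors Oprm1, Oprd1 and Oprk1 were at 0.0652, 0.0724 and 0.0740 TPM. Without replicate 1, Oprm1 was at 0.00818 TPM and Oprk1 was listed at 0. Of the chemokine receptors Cxcr4 was at 9.47, 23.0, 14.2 and 10.4 TPM, highest in replicate 2. Chemosensory receptors marked the floor: 8 of 1092 olfactory receptor genes and none of 325 vomeronasal genes were expressed, and 0 of 38 taste receptors. Their summed level was higher in replicate 1 than in any other library for both of the large families, with 239, 102, 76.1 and 132 TPM for olfactory and 41.6, 10.5, 7.24 and 19.9 TPM for vomeronasal genes in replicates 1 to 4.

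Ion channels and synaptic genes were read in part. Of the synapse and excitability list 18 of 25 genes were expressed, with a median of 5.19 TPM. Kcnc1, which encodes the Kv3.1 potassium channel, was the highest at 153, 117, 88.8 and 136 TPM in replicates 1 to 4. Dlg4, the postsynaptic scaffold PSD-95, was at 74.1 ± 24.4 TPM and Vamp2, a vesicle SNARE of many cells, at 62.1 ± 9.98 TPM. Syt1, the calcium sensor of transmitter release, was at 1.23, 0.791, 0.484 and 1.46 TPM, above the threshold in replicates 1 and 4. Of the voltage-gated potassium channels 15 of 40 genes were expressed, with Kcnd3 at 63.4 ± 14.9 TPM, and of the sodium channel genes 4 of 14. Of these 4 sodium channel genes, not named here, 3 had a mean of 10 TPM or more. Below the threshold, the alpha subunits Scn1a and Scn3a were at 0.189 and 0.173 TPM, and at 0.0791 and 0.0813 TPM without replicate 1. Of 20 connexins 5 were expressed, and Gja1, connexin 43 of radial glia and astrocytes, was the highest at 39.0, 56.4, 46.9 and 51.7 TPM.

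Of 18 interferon response genes 6 were expressed, a smaller share than among all protein-coding genes, with Bst2, tetherin, at 20.4 ± 6.45 TPM and Isg15 at 1.94 ± 0.530 TPM. Mx1, Ifit1, Ifit3, Rsad2 and Irf7, which interferon induces, were at 0.498, 0.352, 0.279, 0.333 and 0.194 TPM, and Ifnb1 was listed at 0. Without replicate 1, Mx1 was at 0.0828 TPM and Ifit1 at 0.142 TPM. Of 12 Toll-like receptors Tlr3, the sensor of double-stranded RNA, was the highest at 10.1, 14.5, 10.3 and 14.8 TPM in replicates 1 to 4. Tlr9, the sensor of CpG DNA, was listed at 0.

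Adhesion and matrix genes were among the most abundant of the surface genes. Cd81, a tetraspanin, was at 1029.8 ± 125 TPM, Itgb1, the common integrin beta chain, at 519 ± 94.0 TPM, Dag1, dystroglycan, at 195 ± 33.6 TPM and Cdh2, N-cadherin, at 181 ± 28.9 TPM. Itga6, a laminin receptor chain, was at 63.2 ± 8.96 TPM, of which 28.8 TPM was in protein-coding transcripts. Cdh1, E-cadherin of epithelia, was at 0.0336, 0.0260, 0 and 0.0252 TPM in replicates 1 to 4. Of the matrix list 26 of 33 genes were expressed. Sparc was at 812, 1137, 875 and 755 TPM and Bcan, the brain proteoglycan brevican, at 694, 514, 530.3 and 613 TPM. The laminin chains Lamc1 and Lamb2 were at 130.1 ± 28.6 and 60.5 ± 14.03 TPM, while the fibrillar collagens Col3a1 and Col1a2 were at 0.292 TPM, or 0.186 TPM without replicate 1, and 0.0979 TPM.

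Xist, the RNA that coats the inactive X chromosome, was at 116, 83.0, 56.0 and 189 TPM in replicates 1 to 4, highest in replicate 4 and lowest in replicate 3. The Y-linked genes were low in all 4: Ddx3y was at 0.519, 0.288, 0.0264 and 0.278 TPM, Eif2s3y at 2.04, 0, 0 and 0.0152 TPM, Kdm5d at 0.542, 0.175, 0.137 and 0.292 TPM and Uty at 0.349, 0.184, 0.0325 and 0.149 TPM, and Sry was listed at 0. Their X-linked partners Ddx3x and Eif2s3x were at 161 ± 30.1 and 213 ± 18.7 TPM. The summed 4 Y-linked genes came to 3.45 TPM in replicate 1 and 0.196 to 0.734 TPM in the others. Reads that kallisto divides between X and Y partners were not separated further, and the sex of the embryos is not in the labels.

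Of the imprinted genes 16 of 23 were expressed. Gnas was at 1124 ± 62.0 TPM, Nnat at 678 ± 54.6 TPM and Mest at 621 ± 145 TPM. By contrast H19 and Igf2, the growth pair of fetal tissue, were at 0.402, 0.771, 0.433 and 0.239 TPM and 0.779, 0.135, 0.250 and 0.209 TPM in replicates 1 to 4. Meg3 was at 1.49 ± 1.15 TPM (0.971 TPM without replicate 1) and Cdkn1c at 1.46 ± 0.403 TPM. Among long non-coding RNAs Gas5 was at 515 ± 19.5 TPM, Malat1 at 257 ± 181 TPM and Neat1 at 2.61 ± 1.48 TPM. Of the CHD remodellers 9 of 10 genes were expressed and of the Polycomb, trithorax and methylation list 21 of 23. Chd4, the ATPase of the NuRD complex, was at 132 ± 20.8 TPM, Chd1, the target of the guide used elsewhere in the study, at 17.0, 15.9, 13.8 and 19.7 TPM and Chd5 at 0.834 TPM. Chd9 had the highest summed level of its family at 226 ± 48.6 TPM, but 95.6% of it was in a 759-base transcript annotated as non-coding, and 4.62 TPM was in protein-coding transcripts. Ezh2, the Polycomb methyltransferase, was at 103 ± 19.04 TPM and Bmi1, which represses Cdkn2a, at 102 ± 25.1 TPM. Of the genes that time development, Lin28b was at 0.0621 TPM (0.0347 TPM without replicate 1), Lin28a at 1.04 ± 2.04 TPM (0.0171 TPM without replicate 1), Igf2bp1 at 0.278 TPM (0.151 TPM without replicate 4) and Hmga2 at 2.50 ± 0.569 TPM, whereas Ptbp1, the splicing repressor of non-neuronal cells, was at 145 ± 14.9 TPM and Ptbp2 at 62.9 ± 18.2 TPM.

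Among nuclear protein-coding genes, with a list of ribosomal protein genes left out that did not hold Rps3a1, the highest were Eef1a1, a translation elongation factor, at 7680.0 ± 855 TPM, Ckb, brain creatine kinase, at 6914 ± 316 TPM and Igfbp2, an IGF binding protein, at 4668 ± 985 TPM, followed by Fabp7. Within the first 25 stood a further set of genes with a role in glia or in secretion: Dbi, Ptn, Vim, Serpine2, a protease inhibitor, at 2056 ± 351 TPM, and Igfbp3 at 1713 ± 296 TPM. Also among them were Tmsb10, Tmsb4x, Actg1, Actb and Cfl1 of the actin skeleton, Fth1 and Ftl1 of ferritin, Tpt1, Gapdh, Pkm, Ptma, Rps3a1, Gm11808 and the chaperones Hsp90ab1 and Hspa8, with means of 1706 to 3955 TPM. Tpt1 was at 1248, 3023, 3339 and 2978 TPM, lowest in replicate 1, and 1295 TPM of its mean was in protein-coding transcripts. Genes of this kind are known for near-identical pseudogenes, among which kallisto divides reads, and how far that moved their levels was not tested. Of the glycolytic enzymes, Gapdh was at 2342 ± 272 TPM and Tpi1 at 4.99, 30.6, 3.14 and 3.98 TPM, highest in replicate 2 and at a mean of 4.04 TPM without it. The main protein-coding transcript of Tpi1 was at 0.912, 28.5, 1.17 and 1.47 TPM. How far the division of reads among similar sequences moved the level of Tpi1 was not tested either. Housekeeping lists were nearly whole: 12 of 12 lysosomal, 21 of 22 glycolysis and hypoxia, 27 of 28 cytoskeleton and housekeeping and 15 of 16 chaperone genes were expressed. Psap, the saposin precursor of lysosomes, was at 778 ± 88.4 TPM, Ldha, lactate dehydrogenase, at 859.7 ± 53.9 TPM and Calr, a chaperone of the endoplasmic reticulum, at 860.3 ± 51.6 TPM. All 18 cholesterol and lipid genes were expressed, with Scd2 at 624 ± 68.6 TPM and Hmgcs1 at 434 ± 61.2 TPM.

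The spread between libraries was widest for low genes. The median coefficient of variation of TPM was 18.0% over the 12295 expressed protein-coding genes and 15.1% over replicates 2 to 4. It was 27.5% among genes of 1 to 10 TPM, 15.8% from 10 to 100 TPM, 10.8% from 100 to 1000 TPM and 12.1% above that. Of the 6 pairs of libraries, replicates 2 and 3 were the closest, with 121 genes over 2-fold apart on log2(TPM + 1). Replicates 1 and 3 were the farthest, with 1037. Replicates 3 and 4 came next with 711, ahead of replicates 1 and 2 with 636, 1 and 4 with 513, and 2 and 4 with 273. By this measure replicate 4 was thus closer to replicate 1 than to replicate 3. By correlation of the same values the order was the reverse. The Pearson correlation of replicate 4 was 0.966 with replicate 1 and 0.978 with replicate 3, and the Spearman correlation 0.969 and 0.976. Replicate 3 lay lower for long genes: where the longest transcript exceeded 6000 bases (1884 genes), its median log2 ratio to the median of the other libraries was -0.47, against 0.12, -0.04 and 0.31 in replicates 1, 2 and 4. Of the 10 genes with the widest spread over replicates 2 to 4 at a mean of at least 10 TPM, Thy1, a surface protein of neurons and other cells, was at 122, 31.0, 27.4 and 99.8 TPM, Tmem267 at 55.6, 11.4, 14.7 and 69.8 TPM, Ugt3a1 at 22.7, 3.05, 5.76 and 16.8 TPM and Ptprn at 18.8, 6.41, 4.69 and 17.7 TPM. The minimum was set on the mean of all 4 libraries, so a high replicate 1 helped a gene to pass. Over replicates 2 to 4 alone, Tsga13, Hist1h4k, Ugt3a1 and Ptprn had means of 0.107, 8.20, 8.54 and 9.59 TPM. Ranking by spread over replicates 2 to 4 also favours genes in which 1 of them departs. In each of the 10 but Tpi1, replicates 1 and 4 were above both replicates 2 and 3, an order that this choice of genes in part favours. Whether this order follows the litters was not tested, since the labels do not give them.

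Replicate 1 was over 2-fold above the median of the other libraries in 405 expressed protein-coding genes (3.29%) and over 2-fold below in 140 (1.14%). The mean that called a gene expressed included the library compared, so genes near 0 elsewhere could enter through that library alone. At a minimum of 10 TPM the counts above and below were closer to each other, as given in the last section. For replicates 2, 3 and 4 the counts were 40 (0.325%), 26 (0.211%) and 179 (1.46%) above, and 120 (0.976%), 369 (3.00%) and 30 (0.244%) below. Of 700 expressed protein-coding genes of the lists described above, 22 were above and 6 below in replicate 1, close to the shares among all expressed protein-coding genes. Of the 13 mitochondrial messenger RNAs, 10 were over 2-fold lower in it. mt-Nd3, a subunit of respiratory complex I, was at 112, 3361, 3168 and 3187 TPM, mt-Atp6, of the ATP synthase, at 1242, 11031, 10711 and 9848 TPM and mt-Co3, of cytochrome oxidase, at 2254, 12599, 13296 and 12318 TPM. mt-Atp8 was at 996, 1423, 775 and 875 TPM and was not lower. Of nuclear genes Prdx1, a peroxidase, was at 170.5, 701, 742 and 654 TPM and Nudt14 at 15.2, 58.3, 53.7 and 60.6 TPM.

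The genes with the highest ratios in replicate 1 were of mixed kinds. Tmem170 was at 369, 1.17, 0.955 and 1.69 TPM, Nfkbie, an inhibitor of NF-kappa B, at 73.4, 1.44, 1.59 and 1.57 TPM and Oxt, oxytocin, at 37.1, 0.232, 0.836 and 1.03 TPM. Each of these was at most 1.69 TPM in the other 3 libraries. Mettl3, the RNA methyltransferase, was at 1034, 33.7, 29.9 and 46.7 TPM, of which a mean of 30.8 TPM was in protein-coding transcripts. Neu1, a lysosomal sialidase, was at 478, 16.2, 16.9 and 18.7 TPM, with 12.3 TPM in protein-coding transcripts, and Flvcr1, a haem exporter, at 169.6, 10.1, 7.02 and 8.93 TPM, with 4.58 TPM. For the last 3 genes the excess therefore lay mostly in transcripts that code for no protein. Small structural RNAs were high in the same library: Rn7s1, an RNA of the signal recognition particle, was at 10898 TPM in replicate 1 and 13.0 to 21.7 TPM in the others, and such miscellaneous RNAs made 5.64% of its TPM against at most 0.0114%. Retained-intron transcripts held 5.33%, 3.01%, 2.52% and 4.43% of TPM in replicates 1 to 4. The part of these measures in the levels of replicate 1 was not tested.

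Replicate 1 also held more reads of genes that the other libraries lacked. Of 3971 protein-coding genes listed at 0 in replicates 2 to 4, 833 were above 0 in replicate 1 and 75 had at least 10 estimated counts. The same count for each other library against its 3 partners was 134 of 3272 in replicate 2, 152 of 3290 in replicate 3 and 243 of 3381 in replicate 4, and 0, 1 and 2 of these genes had at least 10 counts. Grm7, a metabotropic glutamate receptor, was one, at 2.80, 0, 0 and 0 TPM. Clic6 of the choroid plexus list was at 2.22, 0.0122, 0.0317 and 0 TPM. The low values of Emx1, Fezf2, Lhx6, Esr1, Eif2s3y and the Hox genes above were likewise highest in replicate 1.

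**Figure D5:**
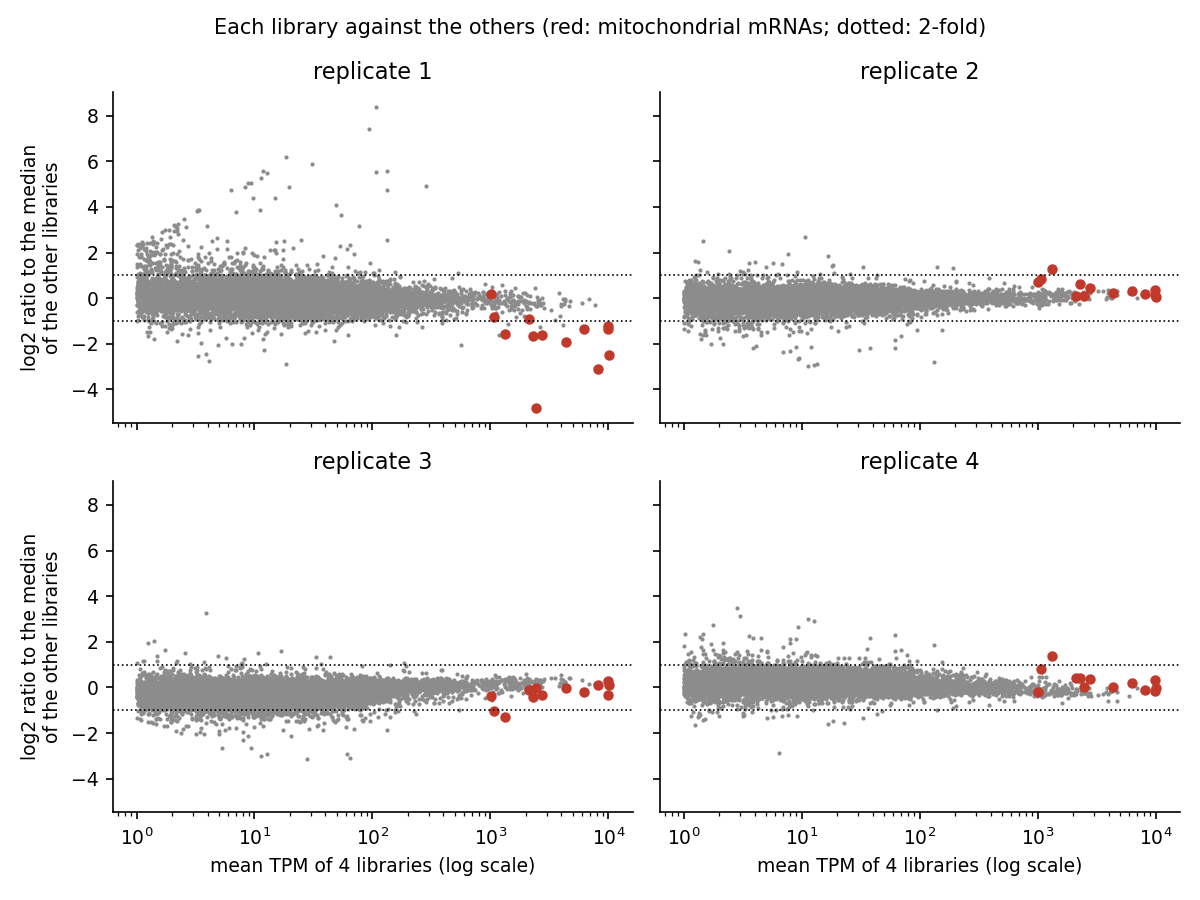
Log2 ratio of each library to the median of the other 3, on log2(TPM + 1), against mean TPM (log axis) for 12295 expressed protein-coding genes, with mitochondrial messenger RNAs in red and dotted lines at a 2-fold difference. Replicate 1 has points far above the upper line and 10 red points below the lower line, and the points of replicates 2 to 4 scatter less.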

How the data were processed

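Cortical progenitor cultures were profiled by RNA sequencing of polyadenylated RNA from samples with an RNA integrity score above 8, with paired reads of 150 bases, per the labels' protocols. The authors quantified transcripts with kallisto against GRCm39, per the submitters' processing notes; the kallisto version is not given in the sources used here. Kallisto divides reads among similar transcripts, so levels of near-identical genes are uncertain. Per the file headers, each deposited file lists 146190 transcripts with a length, an effective length, an estimated count and a TPM value, which sums to 1000000 per library. Of these, 135007 were matched by unversioned ID to GENCODE M21 (GRCm38) for names and types only. TPM and estimated counts were summed by gene ID, which gave 49101 symbols. For the 65 symbols with more than 1 gene ID, only the ID with the highest summed TPM was kept. Unmatched transcripts stayed in the TPM total but entered no gene's sum, so a gene listed at 0 could still have RNA in them. Matched transcripts held 96.8% to 97.8% of TPM. Depth was 20.2 to 34.8 M (M for 1000000) estimated counts per library.

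The 4 wild-type DMSO libraries were used and the other 12 files were not. Means, SDs and coefficients of variation were taken over the 4 libraries, whose separate origin is stated in the labels only as biological replicates. A library was compared with the median of the others on log2(TPM + 1). Python 3.11.15, pandas 2.3.3, numpy 2.4.6 and matplotlib 3.10.9 were used. Promoter windows came from the RefSeq table of GRCm38.p6, and upstream bases only were printed.

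The 67 gene lists, the 38 gene families and the members were chosen with earlier results of these data known, so list counts are descriptions. In each list up to 8 of the highest and up to 6 of the lowest genes were named, with the 8 given markers, the 25 highest nuclear protein-coding genes other than ribosomal proteins (by a symbol list without Rps3a1), the 10 highest and 10 lowest ratios of replicate 1 among genes of at least 5 TPM, and the 10 genes that varied most over replicates 2 to 4 at 10 TPM or more. Some further members, and Rn7s1, were named for their known role after their values were seen. Some genes of the lists are not reported here by name. Alternatives covered the minimum level, the scaling, counts per 1000000 (CPM) without scaling by length, protein-coding transcripts only, the pseudocount, the fold and each library left out.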

Additional observations from a re-analysis of the deposited data

Results flagged for a closer look

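The 4 values of each gene named in the report, and of the measures of each library, were searched for a library far from the rest. The distance of the highest or the lowest library to its nearest neighbour was divided by the range of all 4, and ratios above Dixon's critical value are given. Chance gives about 1 in 20 for values with a normal distribution, which levels close to 0 do not have. Of 408 named genes 69 had such a ratio, and in 62 of them the library was replicate 1. Among the 12295 expressed protein-coding genes 744 (6.05%) had such a ratio. The library was replicate 1 in 3.42% of the 12295 genes, replicate 2 in 0.464%, replicate 3 in 1.05% and replicate 4 in 1.11%. Many of the named genes were chosen because replicate 1 differed or because their level was close to 0, where a single library with reads gives the largest ratio.

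Replicate 1 itself stood apart in its total of estimated counts, 20.2 M (ratio 0.846), in the share of mitochondrial messenger RNA, 2.34% (ratio 0.847), and in the share of miscellaneous RNA, 5.64% (ratio 0.999).

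For some genes of neurons and their precursors replicate 1 was the highest library, at 1.16 TPM for Stmn2 and 1.52 TPM for Tbr1. The ratio was 1 for Neurog1, Neurog3, Fezf1, Slc17a6, Slc32a1, Sst, Vip, Nhlh1 and Atoh1, which the other 3 libraries listed at 0. It was 0.924 for Neurog2, 0.976 for Neurod2, 0.854 for Neurod6, 0.932 for Tbr1, 0.930 for Fezf2, 0.976 for Stmn2, 0.885 for Slc17a7 and 0.860 for Nhlh2.

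It was also the highest for some patterning factors, Hes relatives and genes of the oligodendrocyte lineage, such as Pax5 at 1.05 TPM. The ratio was 1 for Hoxc6, Hes3, Sox10 and Gpr17, which the other 3 libraries listed at 0. It was 0.837 for Emx1, 0.980 for Dmrt3, 0.915 for Lhx6, 0.922 for Pax2, 0.897 for Pax3, 0.995 for Pax5, 0.853 for Irx3, 0.834 for Hes2, 0.979 for Heyl, 0.996 for Lin28a and 0.938 for Mbp.

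Receptors and ligands highest in replicate 1 included Grm7 at 2.80 TPM and Bmp4 at 1.14 TPM. The ratio was 1 for Grm7, Oprk1, Wnt1 and Wnt3a, which the other 3 libraries listed at 0. It was 0.940 for Alk, 0.924 for Esr1, 0.896 for Oprm1, 0.857 for Bmp4 and 0.834 for Fgf2.

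Of genes at higher levels, Myc, a growth factor response gene, was at 86.1 TPM in replicate 1 and 71.9 to 72.8 TPM in the others. The ratio was 0.998 for Tmem170, 0.983 for Mettl3, 0.998 for Nfkbie, 0.995 for Neu1, 0.978 for Oxt, 0.981 for Flvcr1, 0.999 for Rn7s1 and 0.938 for Myc.

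Further genes were also highest in replicate 1, with Clic6 of the choroid plexus list at 2.22 TPM. The ratio was 1 for Cldn5, which the other 3 libraries listed at 0. It was 0.986 for Clic6, 0.912 for Dnah12, 0.993 for Eif2s3y, 0.906 for Foxa1, 0.913 for Ifit1, 0.948 for Mx1 and 0.881 for Scn1a.

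Replicate 1 was the lowest library for 3 mitochondrial genes and 2 nuclear ones. The ratio was 0.940 for mt-Nd3, 0.879 for mt-Atp6, 0.911 for mt-Co3, 0.845 for Prdx1 and 0.847 for Nudt14.

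In a few genes another library stood apart. Drd5 was highest in replicate 3, at 0.0128 TPM (ratio 1). En2 was lowest in replicate 3, at 0.937 TPM (ratio 0.918). Ezh2 was highest in replicate 4, at 131 TPM (ratio 0.845). Gad2 was highest in replicate 4, at 0.175 TPM (ratio 0.966). Grin2b was highest in replicate 4, at 1.28 TPM (ratio 0.838). Hsd17b3 was highest in replicate 4, at 0.131 TPM (ratio 1). Tpi1 was highest in replicate 2, at 30.6 TPM (ratio 0.933).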

How the results depend on the processing

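The number of genes expressed, the number of protein-coding genes expressed and the number of list members expressed stayed within 1.5 times the reported count under every minimum, scaling and transcript choice tried and without each library. When TPM was rescaled to protein-coding nuclear genes only, marker means were higher for Sox2 (180.0 TPM), Nes (733 TPM), Vim (2451 TPM), Fabp7 (4982 TPM), Mki67 (57.9 TPM) and Olig2 (581 TPM), because the sum then leaves out mitochondrial and non-coding RNA. With protein-coding transcripts only, Pax6 came to 13.0 TPM, Vim to 1771 TPM and Gfap to 0.910 TPM. The median coefficient of variation was 14.8% at a minimum of 10 TPM, and 15.0% to 19.8% with 1 library left out, lowest without replicate 1. Genes higher in replicate 1 numbered 669 with no minimum, 105 at a minimum of 10 TPM and 98 at a fold of 4. Genes lower in it numbered 260 with a pseudocount of 0.1, 83 at a minimum of 10 TPM and 12 at a fold of 4. With another library left out the counts ran from 299 to 551 higher and from 141 to 189 lower. Of 67 lists, the count of expressed members left that range in 6 at a minimum of 0.5 TPM, 5 at 1 TPM in every library, 4 at a minimum of 2 TPM, 3 with protein-coding transcripts only, 2 by CPM, 2 without replicate 4, and 1 each without replicate 1, without replicate 2 and under either rescaling of TPM. Among 713 expressed list members, 96 were over 1.5 times lower and 43 under 1 TPM with protein-coding transcripts only. No paired analysis was possible because no groups were compared. The alternative for CG content by expression level was not run, since 75.4% of protein-coding nuclear genes had a promoter window and the comparison was void. Depth limits what an absence shows: 3 counts correspond to 0.242 TPM for C1qb in replicate 1 and 0.598 TPM for Hbb-bs.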
